A study of Mus musculus with 10 samples.

Results

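Cluster 2 of the paraventricular hypothalamus (PVH) was a set of 53 single neurons with high *Avp*, the gene of vasopressin. The members were the cells that the study's own clustering put under this number, among 706 sequenced cells of which 664 fell in 12 PVH clusters and the rest in clusters 5, 6 and 11. Cells were picked by hand from brain slices of male mice over 7 weeks of age that carried *Agrp-IRES-Cre* and the Ai9 tdTomato reporter. The slices had been treated with pronase and with TTX, APV and DNQX, which block sodium channels and glutamate receptors. All cells shared this genotype, sex and treatment, so the data hold no second condition, and the labels do not tie a plate to an animal. The Cre is driven from *Agrp*, a gene of arcuate neurons, and the study's methods used the reporter in the axons of these neurons to find the borders of the PVH. The labels instead describe the picked cells themselves as tdTomato positive, so whether they carried the reporter cannot be settled here. RNA of each cell was read as unique molecular identifiers (UMIs) of genes and of spike-in RNAs on 10 plates, named Q (4 plates), AL (2 plates) and JM (4 plates).

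Vasopressin is made by large neurosecretory neurons of the PVH and supraoptic nucleus that release it from the posterior pituitary into the blood, where it acts on the kidney and on blood vessels. Smaller PVH neurons also make it and send it to the median eminence or to other brain regions. Its precursor also holds a carrier protein, a neurophysin, and oxytocin, which comes from a neighbouring gene in other neurosecretory neurons, is built in the same way. Large vasopressin neurons are also known to store dynorphin, the product of *Pdyn*.

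The Q plates held 48 of the 53 cells, with 8 on Q5, 8 on Q6, 12 on Q7 and 20 on Q8, while plate AL5 held 2 and plate JM8 held 3. A plate was taken as the replicate, and the 5 plates with at least 3 cells of the cluster entered the comparisons, so that 51 cells stood against 322 cells of the other PVH clusters. A cell of cluster 2 had 53363 to 496655 UMIs with a median of 253588, and 3197 to 6522 genes with a median of 4963. The 3 cells of plate JM8 had a median of 55158 UMIs, against 226703 to 348818 on the Q plates. No cell was listed more than once and no pair of cells had identical counts (0 of each).

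The genes of vasopressin and oxytocin lie on opposite strands of chromosome 2, *Avp* at chr2:130580620-130582554 on the minus strand and *Oxt* at chr2:130576173-130577054 on the plus strand (GRCm38, GENCODE annotation). Their transcripts share a run of 127 identical bases in the coding part, which begins at the end of exon 1 and continues in exon 2. The run is printed because the main contrast of the cluster is between these 2 genes, and because a read that lies wholly in it cannot be assigned to either.
Shared run of *Avp* and *Oxt*: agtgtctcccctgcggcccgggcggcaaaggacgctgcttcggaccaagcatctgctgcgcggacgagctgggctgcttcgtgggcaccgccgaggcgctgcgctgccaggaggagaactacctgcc
It spans bases 144 to 270 of the 577 bases of the *Avp* transcript and bases 156 to 282 of the 537 bases of the *Oxt* transcript, and ends 307 and 255 bases before their 3′ ends. Of the 488 stretches of 50 bases in the *Oxt* transcript, 78 also occurred in *Avp*.

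*Avp* was detected in 53 of 53 cells. Its level in a cell ranged from 22361 to 149244 UMIs per 1000000 UMIs of the cell (CPM), with a median of 68236. Summed over the cells of a plate it was 72694 CPM on Q5, 58943 on Q6, 61702 on Q7, 84048 on Q8 and 69434 on JM8. The other PVH clusters had 3079, 1007, 1854, 7035 and 7033 CPM on the same plates, so the groups did not overlap. The difference was 4.50 on the log2 scale (standard error 0.41, edgeR), which is 22.6-fold. The 2 cells of plate AL5, which did not enter the comparison, were at 52157 and 61700 CPM. Since the clusters were drawn from these same genes, this and every later difference in gene level between clusters is given as a description, with no p-value.

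*Pdyn*, the precursor of dynorphin, was detected in 53 of 53 cells as well, at 3.41 to 984 CPM per cell. Its summed level was 471, 234, 283, 233 and 403 CPM on Q5, Q6, Q7, Q8 and JM8, against 80.0, 44.0, 77.4, 61.4 and 216 CPM in the other clusters. Every plate of cluster 2 was above every plate of the others, by 1.97 ± 0.25 (log2 fold change ± SE) or 3.93-fold.

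*Arg2*, the mitochondrial arginase that splits arginine into ornithine and urea, was found in 14 of 53 cells (26.4%, exact 95% binomial interval 15.3% to 40.3%) and in 3 of 322 cells of the other clusters. Such intervals cover counting error only. The summed level was 46.0, 21.4, 29.5, 14.5 and 18.7 CPM on Q5, Q6, Q7, Q8 and JM8. The other clusters were at 0 on Q5, Q6 and Q8, at 0.0482 CPM on Q7 and at 3.30 CPM on JM8, so the groups did not overlap, and the log2 fold change was 8.69 ± 1.82. *Arg2* therefore marked the cluster as a sum, while most single cells showed no UMI of it. Of the 14 cells, 13 had at least 3 UMIs and 5 had at least 30.

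All 3 markers were shared with the *Avp* clusters 3 (36 cells) and 4 (22 cells). The level of *Avp* was 69364 ± 9925 CPM (mean ± SD, n = 5 plates) in cluster 2, 50763 ± 16615 CPM in cluster 4 and 46024 ± 15341 CPM in cluster 3, each over 5 plates, and the spreads of these neighbours met. The next by plate mean were cluster 1, the *Oxt* cluster, at 2253 ± 4692 CPM over 10 plates and cluster 10 at 2097 ± 2814 CPM over 7. By the median cell the order was reversed, with 164 CPM in cluster 1 and 459 CPM in cluster 10. For *Pdyn* the order was different, with cluster 4 at 858 ± 208 CPM, cluster 3 at 594 ± 168, cluster 13 at 375 ± 122, cluster 12 at 355 ± 211 and cluster 2 at 325 ± 107, of which the last 3 lay within their spread. *Arg2* was in 27.8% of cluster 3 cells, 26.4% of cluster 2 cells and 22.7% of cluster 4 cells, but in 0.452% of cluster 1 cells. It was seen in 0 of 62 cells of cluster 10.

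*Oxt* also had UMIs in all 53 cells, at 47.6 to 2545 CPM with a median of 378. The summed level was 1111 CPM on Q5, 380 on Q6, 292 on Q7, 408 on Q8 and 150 on JM8, against 12983 to 60786 CPM in the other PVH clusters. The groups did not overlap and the log2 fold change was -6.48 ± 0.18. Against the PVH clusters other than 1, 3, 4 and 12 the difference was 0.15, in the other direction.

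UMIs of *Oxt* were also found in wells where no cell was listed. On the 5 plates, 26 wells with under 1000 UMIs lay outside the table of cells. They held 60 to 89 *Oxt* UMIs on Q5, 21 to 59 on Q6, 19 to 50 on Q7, 2 to 21 on Q8 and 0 to 5 on JM8. Cells of cluster 2 had a median of 157, 130.5, 93.5, 93.5 and 12 *Oxt* UMIs on these plates, and cells of clusters 7 to 10, which are not *Oxt* clusters, had 95, 66.5, 42.5, 26.5 and 3. Of the 51 cells, 49 were above the highest such well of their plate and 13 were above 4 times that value, 2 on Q5 and 11 on Q8. For *Avp* and *Pdyn* all 51 cells were above 4 times the highest such well. The limit of 1000 UMIs and the factor were chosen after seeing the data. The part of stray RNA and of the shared run in the *Oxt* of these cells was not tested.

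Within the cluster, cells with more *Avp* also had more *Oxt*. After centring on the plate, Spearman's rho between their CPM was 0.64 over 51 cells, against 0.20 for *Avp* with *Pdyn*, 0.21 with *Gal* and -0.14 with *Tac1*. These pairs share a library and its depth, and *Avp* and *Oxt* also share the printed run.

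**Figure D1:**
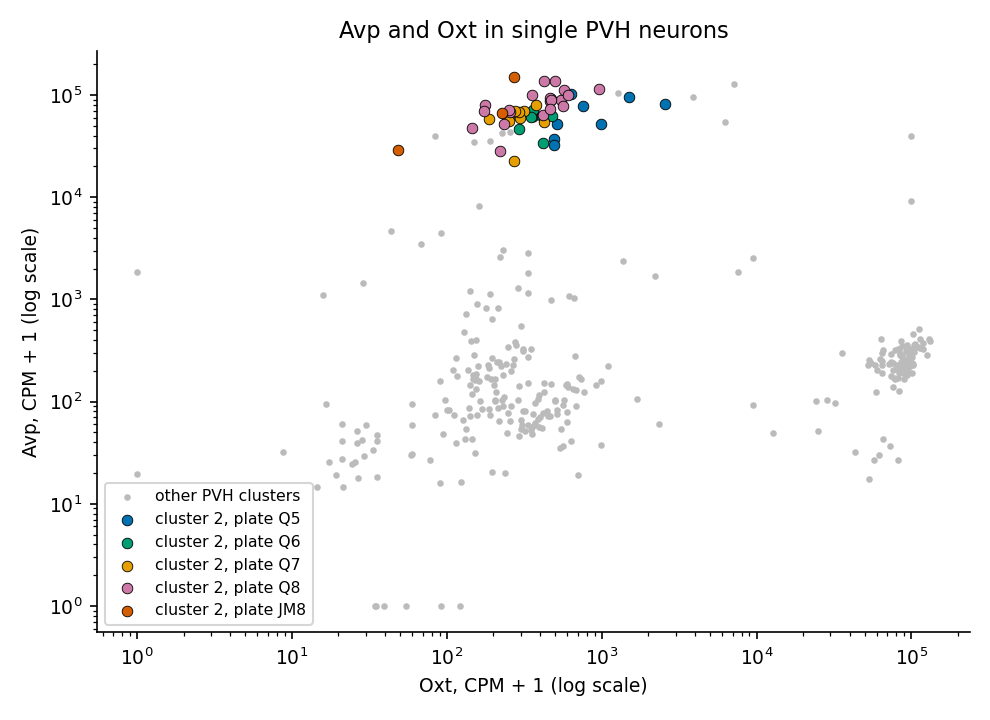
Level of *Avp* (vertical) against *Oxt* (horizontal) in single PVH neurons, both as CPM + 1 on log axes, with the cells of cluster 2 coloured by plate and other PVH cells in grey. The cells of cluster 2 sit at 22361 to 149244 CPM of *Avp* and 47.6 to 2545 CPM of *Oxt*.

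Across all genes, a gene was counted as higher or lower where it differed at least 2-fold and in the same direction on every one of the 5 plates. Of 11730 genes with enough UMIs, 132 (1.13%) were higher in cluster 2 and 1118 (9.53%) were lower, and the median log2 fold change of all genes was -0.42. On plate JM8, 888 of the 1118 lower genes had no UMI in its 3 cells, as had 4916 of all 11730 genes. Without this plate, 234 genes were higher and 1435 lower, and 1047 of the lower genes were among the 1118. With as many reference cells as cluster 2 cells on each plate, a choice added after seeing the data, 233 were higher and 302 lower.

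Among the 15 genes named for the largest positive differences, *Tac1*, *Tacr3*, *Bmp4*, *C1ql2* and *Pla2r1* code for secreted signals or for receptors. *Tac1*, the precursor of substance P and neurokinin A, was at 582 CPM on Q5, 318 on Q6, 1016 on Q7, 484 on Q8 and 2093 on JM8. The other clusters were at 16.3, 30.1, 158, 2.46 and 114 CPM, all below every plate of cluster 2 (log2 fold change 4.47 ± 0.64). It was seen in 36 of 53 cells and 57 of 322 others, and in none of the 26 wells with under 1000 UMIs was there a UMI of it.

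*Tacr3*, the receptor of neurokinin B, was in 13 of 53 cells and 4 of 322 others. Its levels were 0.989, 18.5, 40.5, 28.1 and 46.8 CPM on Q5, Q6, Q7, Q8 and JM8, so that Q5 overlapped with the other clusters, which reached 1.87 CPM. *Bmp4*, a growth factor of the TGF-beta family, was at 14.0 to 41.8 CPM against 0 to 4.88 CPM, in 27 cells against 9. *C1ql2*, a secreted C1q-like protein of synapses, was in all 53 cells and 81 of 322 others, at 323 ± 194 against 26.1 ± 17.3 CPM.

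*Pla2r1*, the receptor of secreted phospholipase A2, was in 17 cells at 24.6 ± 11.9 CPM, against 2.27 ± 1.71 CPM in the other clusters. Of the 13 cells with *Tacr3*, 10 also had *Tac1*, 8 had *Bmp4* and 4 had *Arg2*, and of the 27 cells with *Bmp4*, 21 had *Tac1*. The *Avp* clusters 3 and 4, of which the reference held only 1 cell on the Q plates, had these genes too. *Tac1*, *Tacr3*, *Bmp4*, *C1ql2* and *Pla2r1* were in 33, 17, 26, 34 and 19 of 36 cells of cluster 3. In cluster 4 they were in 10, 6, 9, 18 and 9 of 22 cells. All these counts are of cells with at least 1 UMI and depend on depth.

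Enzymes and small-molecule transporters made up another group. *Gda*, the guanine deaminase, was at 112, 169, 160, 144 and 169 CPM on Q5, Q6, Q7, Q8 and JM8 against 4.58 to 19.6 CPM, a 16.9-fold difference. It was found in 47 of 53 cells and 51 of 322 others. *Gsta4*, a glutathione transferase that clears products of lipid oxidation, was at 387, 254, 280, 288 and 403 CPM against 34.9 to 83.3 CPM, or 5.72-fold, also in 47 cells. *Gda* and *Gsta4* were in 25 and 31 of 36 cells of cluster 3 and in 12 and 11 of 22 cells of cluster 4.

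*Slc7a11*, the exchanger that brings in cystine for glutathione and releases glutamate, was in 8 cells, all of which also had *Tac1*. Its level was 6.43 to 15.3 CPM on the Q plates and 79.6 CPM on JM8. *Clic1*, an intracellular chloride channel protein, was at 51.1 to 199 CPM against 4.96 to 23.4 CPM. Of the 4 remaining genes, *Dact1*, an inhibitor of Wnt signalling, was at 62.3 ± 32.2 against 9.39 ± 4.51 CPM. The other 3, *Krt73* (a keratin), *Tyrp1* (an enzyme of pigment cells) and *Rgma* (an axon guidance protein), had their highest plate on JM8, at 220, 108 and 103 CPM from 2, 1 and 1 of its 3 cells, against at most 40.5, 25.2 and 8.84 CPM on the Q plates. *Slc7a11*, *Clic1*, *Dact1*, *Tyrp1* and *Rgma* were also in 6, 21, 23, 14 and 12 of 36 cells of cluster 3. In cluster 4 they were in 2, 19, 12, 8 and 3 of 22 cells.

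**Figure D2:**
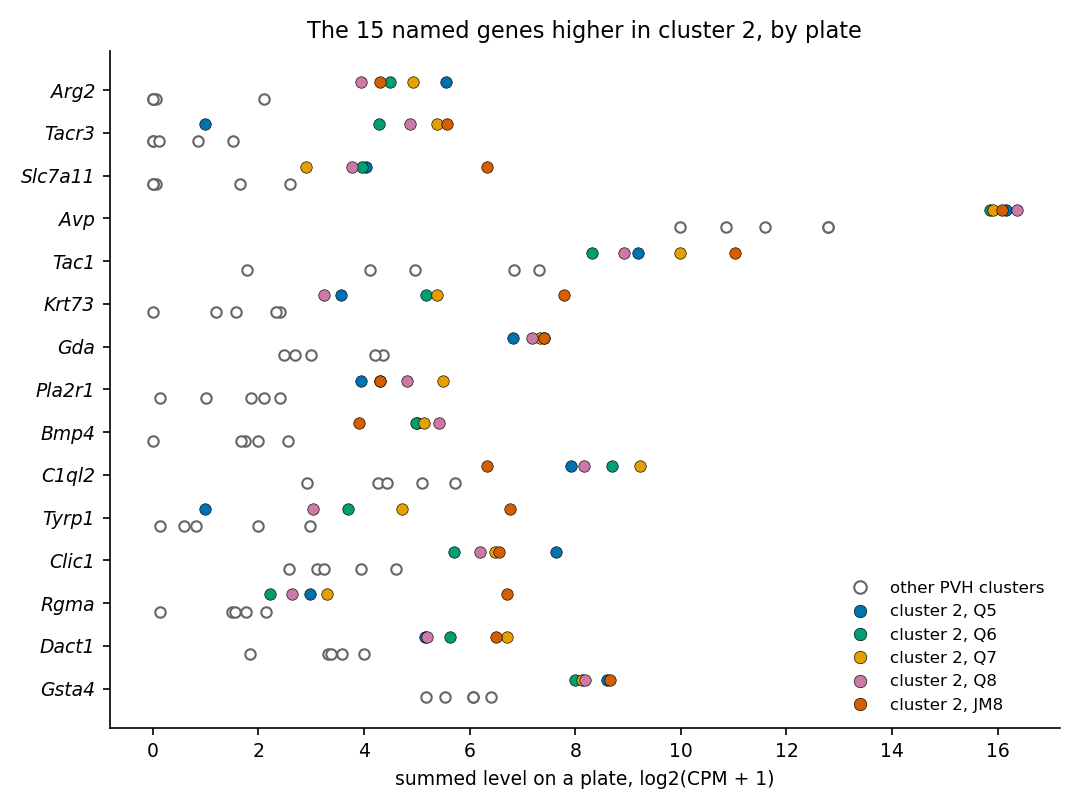
Summed level of the 15 named genes in cluster 2 (coloured points, 1 for each of 5 plates) and in the other PVH clusters of the same plates (open points), as log2(CPM + 1). The groups overlap on a plate of *Tacr3* and of *Tyrp1*. The genes were chosen for large differences and for being higher on every plate, so the lack of overlap in the others follows largely from the choice.

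The 10 genes named for the largest negative differences had no UMI in any cell of cluster 2 on these plates (0 of 51 cells). For each, 3 UMIs in the whole cluster was taken as the limit of detection. *Unc13c*, which primes synaptic vesicles, was at 38.1 CPM in the summed UMIs of the other clusters and therefore at least 174-fold lower in cluster 2. The bound was 171-fold for *Cckar*, the cholecystokinin A receptor, and 142-fold for *Rspo3*, which strengthens Wnt signals.

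Among the others were *Cpne6*, *Reln*, *Lmo1*, *Prickle2*, *Gas7* and *Cd24a*, with bounds from 93.8-fold to 134-fold. They included reelin, the extracellular protein of neuronal positioning, which was at 27.5 CPM in the summed UMIs of the other clusters. Against cluster 1 alone, the *Oxt* cluster, *Cckar* and *Rspo3* were at least 210-fold and 199-fold lower in cluster 2. *Reln* had only 4 UMIs in cluster 1, so no fold is given for it there. For *Unc13c*, *Lmo1* and *Cd24a*, with 51, 29 and 68 UMIs in cluster 1, the bound was only 5.51-fold, 3.14-fold and 7.35-fold. For *Cpne6*, *Prickle2* and *Gas7* it was 20.3-fold, 46.7-fold and 68.8-fold. In clusters 3 and 4, *Rspo3* was in 0 of 36 and 0 of 22 cells, and *Cckar* in 0 of 36 and 1 of 22.

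Of 23 listed genes of neuropeptides and hormones, 11 had enough UMIs, of which 1 was higher (*Tac1*) and 7 were lower, and 8 of the 23 had no UMI in cluster 2. Over all genes 1.13% were higher and 9.53% lower. *Crh*, the corticotropin-releasing hormone, was at 0, 0, 19.3, 0.201 and 0 CPM against 76.4 to 403 CPM, and was found in 3 of 53 cells and 90 of 322 others. *Trh*, the thyrotropin-releasing hormone, was at 0 to 11.3 CPM against 152 to 631 CPM, with no overlap (log2 fold change -6.73 ± 0.57). *Sst*, the gene of somatostatin, had UMIs in 48 of 53 cells but only 0 to 38.0 CPM, against 144 to 3842 CPM in the other clusters.

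Of the 51 cells, 24 had more *Sst* UMIs than the highest well with under 1000 UMIs of their plate, and 5 had more than 4 times as many. *Penk* (enkephalin) and *Cartpt* were also lower, by -7.72 ± 0.68 and -7.67 ± 0.27, as were *Adcyap1* and *Ghrh*, with 1 and 2 UMIs in the cluster. Cluster 1 was also near 0 for *Crh*, *Trh* and *Penk*, at 0.892, 0.937 and 1.14 CPM. Against it, 2 of 7 listed peptides with enough UMIs were lower, beside 6.86% of all genes. *Gal*, the gene of galanin, counted on neither side, at 103 to 2142 CPM against 229 to 685 CPM, but was high in most cells. It had UMIs in 48 of 53 cells, and 43 of 51 cells were above 4 times the highest such well.

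Receptors of vasopressin and oxytocin had few or no UMIs. *Avpr1a*, the V1a receptor, was found in 5 of 53 cells, at 0 to 11.9 CPM against 6.46 to 23.6 CPM, and counted as lower with overlapping groups (log2 fold change -2.34 ± 1.20). *Avpr1b*, *Avpr2*, *Oxtr* and *Cd38* had no UMI in 53 cells. Taken as 3 counts, this allows up to 5.66% of cells with a UMI, and the exact 95% limit is 6.72%. They were also nearly undetected elsewhere, in 1, 0, 2 and 0 of the 322 other cells. Of 8 genes listed for this system, 4 had enough UMIs in the comparison.

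In the opioid list (7 genes, 5 with enough UMIs), *Pdyn* was higher and *Penk*, *Pnoc* and *Oprk1* were lower. The shares over all genes were 1.13% higher and 9.53% lower. *Oprk1*, the kappa receptor at which dynorphin acts, was at 3.46, 8.34, 10.7, 21.3 and 0 CPM on Q5, Q6, Q7, Q8 and JM8. The other clusters were at 50.8 to 99.2 CPM, above every plate of cluster 2 (log2 fold change -3.17 ± 0.64), and 11 of 53 cells had a UMI of it. The ligand and its receptor thus lay on opposite sides of the comparison.

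Genes of prohormone processing and of vesicle cargo were mostly at the level of other PVH neurons. Of 17 such genes, 0 counted as higher and 1 as lower, beside 1.13% and 9.53% over all genes. Their median log2 fold change was 0.24, beside -0.42 over all genes. *Cpe*, which trims processed hormones, was at 798 to 1658 CPM against 523 to 1184 CPM (0.49 ± 0.15). The convertases *Pcsk1* and *Pcsk2* differed by 0.47 ± 0.30 and 1.00 ± 0.28. The lower gene was *Scg2*, the granin secretogranin II, at 611, 907, 483, 701 and 300 CPM against 1657 to 5027 CPM, with no overlap (-2.35 ± 0.22).

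Of 26 genes of protein folding in the endoplasmic reticulum, 0 counted as higher and 1 (*Derl3*, with 2 UMIs in cluster 2) as lower. Among all genes these shares were 1.13% and 9.53%. In this list 19 of 26 had a positive log2 fold change, and the median was 0.36. The chaperone *Hspa5* was at 927, 938, 1120.2, 1103 and 1311 CPM against 450 to 813 CPM, and the groups did not overlap (0.79 ± 0.14). *Manf*, a stress-induced factor of the same compartment, was at 633 to 845 CPM against 242 to 473 CPM, again with no overlap (0.91 ± 0.18). Both stayed below the 2-fold limit.

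In arginine metabolism (15 of 19 genes with enough UMIs), *Arg2* stood alone as higher and *Ass1* and *Nos1* were lower. Beside this, 1.13% of all genes were higher and 9.53% lower. *Ass1*, which makes the arginine precursor argininosuccinate, was at 0 to 3.95 CPM against 9.09 to 34.3 CPM. *Nos1*, the neuronal nitric oxide synthase that also uses arginine, was at 30.2, 18.5, 6.16, 16.3 and 9.37 CPM against 97.2 to 216 CPM (-3.32 ± 0.41). The groups did not overlap for either gene. The arginine transporter *Slc7a1* was at 50.3 ± 11.3 against 48.8 ± 9.33 CPM (0.07 ± 0.42).

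The list of channels and transporters had 23 of 30 genes with enough UMIs, with 1 higher and 5 lower and a median of -1.06, beside 1.13% higher, 9.53% lower and a median of -0.42 over all genes. *Kcnmb4*, the beta-4 subunit of the calcium-activated BK potassium channel, was higher at 181 ± 52.3 against 86.7 ± 18.0 CPM (1.06 ± 0.24), in 52 of 53 cells. The pore subunit *Kcnma1* was at 53.1 ± 17.7 against 61.5 ± 24.2 CPM. *Slc12a5*, the potassium-chloride exporter KCC2 that keeps neuronal chloride low, was at 26.7 to 66.4 CPM against 86.9 to 166 CPM (-1.50 ± 0.36), with no overlap. *Hcn2*, *Cacna1b*, *Cacna1d* and *Trpm4* were the other lower genes.

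Receptors of steroids, angiotensin and feeding signals had few UMIs, with 11 of 25 at 0 UMIs in cluster 2. Apart from *Tacr3*, none of the 13 with enough UMIs was higher, and 4 were lower, beside 1.13% and 9.53% over all genes. *Nr3c1*, the glucocorticoid receptor, was at 0 to 11.3 CPM against 47.0 to 168 CPM (-5.84 ± 0.81), in 4 of 53 cells against 141 of 322. *Agtr1a*, *Mc4r* and *Npy1r*, receptors of angiotensin II, melanocortins and neuropeptide Y, had no UMI and were at least 52.0-fold, 40.2-fold and 69.3-fold lower. Cluster 1 was also near 0 for them, at 0.0585, 0.0905 and 0.0377 CPM, and was at 0.993 CPM for *Nr3c1*.

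For fast transmitters, *Slc17a6*, the vesicular glutamate transporter VGLUT2, was at 111, 66.0, 46.9, 41.4 and 46.8 CPM against 75.6 to 256 CPM, and was not lower on every plate (-1.07 ± 0.40). *Gad1*, *Slc32a1* and *Slc17a7* had no UMI in 53 cells and were in 3, 0 and 0 of 322 others, while *Gad2* had 11 UMIs in 4 cells. Among 16 transcription factors of the PVH lineage (10 with enough UMIs) 0 were higher and 4 were lower, namely *Nhlh2*, *Lhx5*, *Zfhx3* and *Foxp1*, beside 1.13% and 9.53% over all genes. *Sim1*, *Otp*, *Pou3f2* and *Arnt2*, which are needed for neurosecretory neurons to form, differed by 0.49 ± 0.43, -0.23 ± 0.20, 0.74 ± 0.22 and 0.57 ± 0.28.

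Of 14 immediate early genes with enough UMIs, 0 were higher and 0 were lower, beside 1.13% and 9.53% over all genes. Their median log2 fold change was -0.16. *Fos* was at 84.3 to 651 CPM against 148 to 774 CPM. These are levels after slicing and digestion under blockers of activity.

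**Figure D3:**
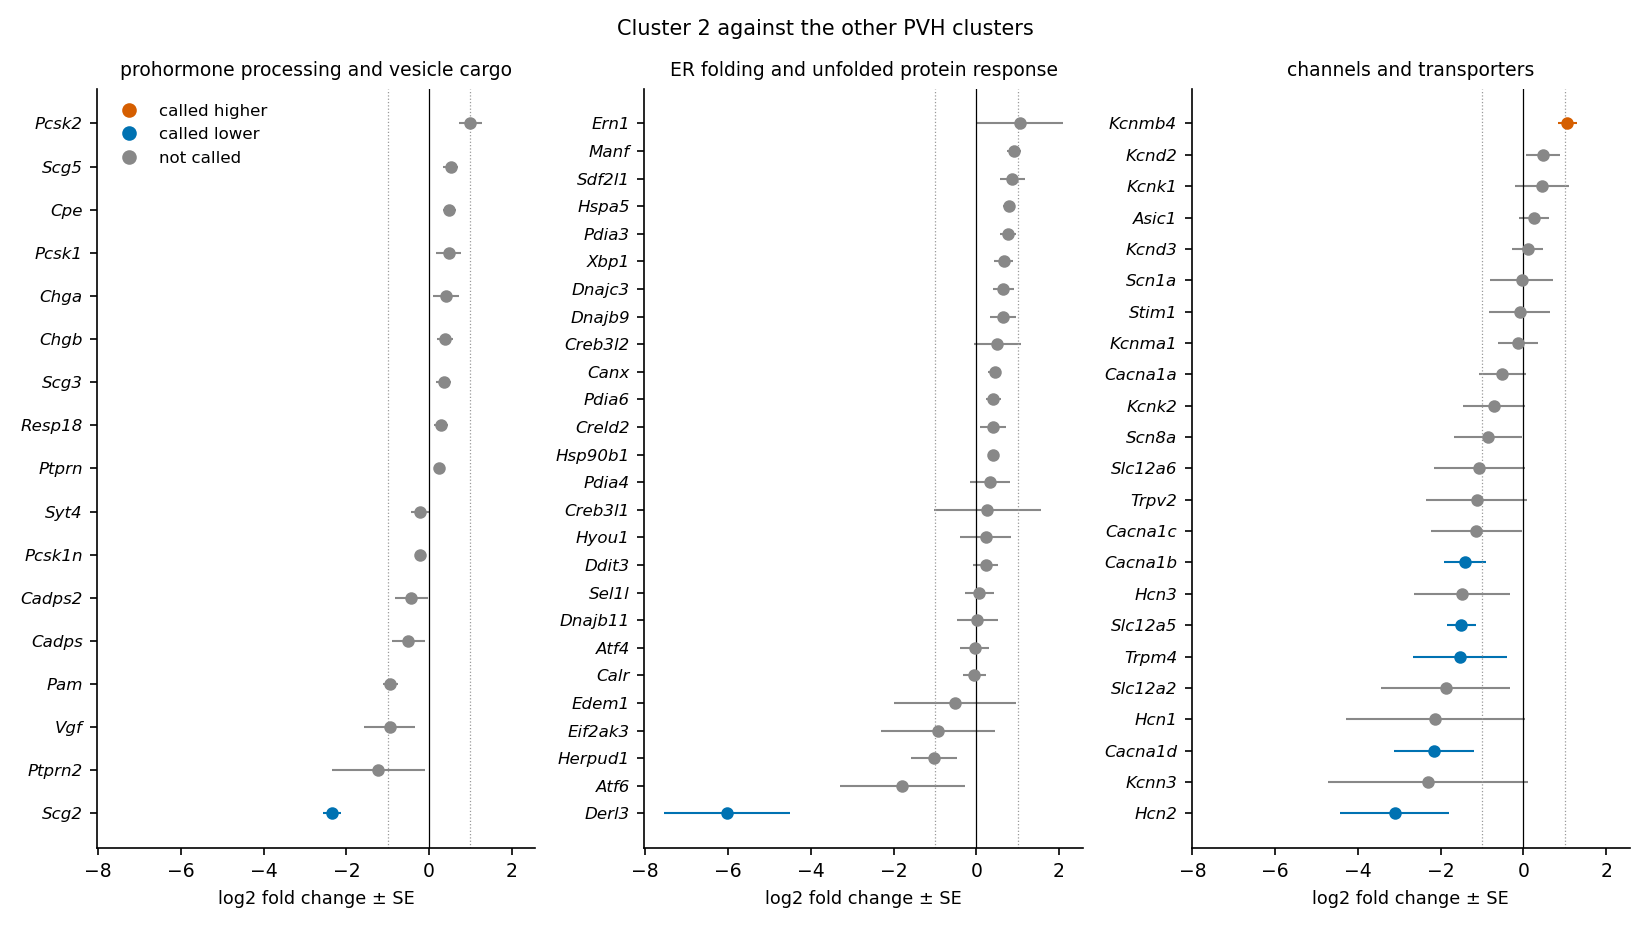
Log2 fold change of cluster 2 against the other PVH clusters (points, with bars of 1 standard error) for the genes of prohormone processing and vesicle cargo, of protein folding and of channels and transporters. Dotted lines mark 2-fold, and the counted genes are 1 lower of 17, 1 lower of 26, and 1 higher with 5 lower of 23.

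Markers of other cells that the dissection could hold were low or absent. All 7 microglial markers had no UMI in the cluster, as had 5 of 7 of astrocytes and tanycytes (summed 0 to 11.9 CPM over plates, against 65.4 to 228 CPM in the other clusters). Only 1 of these 7 astrocyte and tanycyte genes had enough UMIs to be compared, with a log2 fold change of -6.22. *Aqp4*, *Slc1a3*, *Agt* and *Gja1* were low in the other clusters as well, at 0.282, 0.154, 1.32 and 0.167 CPM of their summed UMIs. Of 11 markers of the suprachiasmatic nucleus, a neighbouring region that also holds *Avp* neurons, 7 were at 0 and the sum was 0 to 17.8 CPM, against 19.4 to 39.1 CPM. Vascular markers had 4 of 7 at 0 and a sum of 0 to 14.7 CPM, against 0.324 to 3.45 CPM in the other clusters. The highest of these was on Q7 and came from *Rgs5*, a pericyte gene, which was in 4 of 53 cells. Of 6 arcuate markers, 3 were at 0 and the sum was 4.68 to 78.1 CPM against 18.8 to 62.3 CPM, nearly all of it *Pomc* (39.5 ± 26.4 CPM).

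In the oligodendrocyte list, *Mbp*, the myelin basic protein, counted as higher at 33.1 to 79.8 CPM against 22.4 to 34.3 CPM (1.04 ± 0.46), with overlapping groups and in 28 of 53 cells. The defining genes *Olig1*, *Olig2*, *Mog*, *Pdgfra* and *Cspg4* had no UMI, and 7 of the 9 listed genes were at 0. Of the 6 pan-neuronal genes, *Snap25* (164 ± 59.5 against 522 ± 348 CPM) and *Syt1* (165 ± 42.3 against 415 ± 66.0 CPM) counted as lower, beside 9.53% of all genes. *Stmn2* was at 1144 ± 90.9 against 1219 ± 80.9 CPM.

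The *Oxt* neurons of cluster 1 (221 cells) were compared with cluster 2 on the same 5 plates. Of 10580 genes, 216 (2.04%) were higher in cluster 2 and 726 (6.86%) were lower, with a median of -0.28 over all genes. Without plate JM8 these were 393 and 960, and without plate Q5 they were 334 and 1011. *Oxt* was at 60521 to 87299 CPM in cluster 1 and differed by -7.65 ± 0.31. *Avp* in cluster 1 varied widely between plates, at 4289, 1341, 253, 15085 and 29.7 CPM, and the difference had a larger error (5.85 ± 1.78). Of the 114 cells of cluster 1 on these plates, 5 had more *Avp* than the lowest cell of cluster 2, with 2 on Q5, 1 on Q6 and 2 on Q8. These were also the plates with the highest *Avp* sums of cluster 1. The median *Avp* level of the other cells was 231 CPM. The *Oxt* level of the 5 cells was 1280 and 98734 CPM on Q5, 6277 CPM on Q6, and 3902 and 7158 CPM on Q8.

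*Bcl11a*, a zinc finger transcription factor of neuronal subtypes, had 830 UMIs in cluster 2 and 1 UMI in cluster 1. The ratio of summed CPM was 2559, with a counting interval of 458 to 101198. It was in 66.0% of cluster 2 cells and 0.905% of cluster 1 cells, but was not particular to vasopressin neurons, being also in 71.0% of cells of cluster 10. *Galnt9*, which starts sugar chains on proteins, had 636 UMIs and 1 UMI (ratio 1961, 351 to 77573). *Adamts5*, an enzyme that cuts matrix proteoglycans, had 303 and 0 UMIs, at least 311-fold higher, and *Tacr3* had 354 and 0, at least 364-fold higher. *Tac1* was at 318 to 2093 CPM in cluster 2 and 4.11 CPM on average in cluster 1 (8.89 ± 0.90), and the transcription factor gene *Ebf3* at 76.1 ± 60.4 against 2.67 CPM (5.95 ± 1.18). *Galnt9*, *Adamts5* and *Ebf3* were also in 24, 16 and 32 of 36 cells of cluster 3. In cluster 4 they were in 13, 3 and 16 of 22 cells.

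*Arg2*, *Slc7a11* and *Pla2r1* completed the 8 genes named on this side, with 1 UMI of each of the first 2 in cluster 1. On the other side stood *Rspo3* and *Cckar*, given above, and 5 further genes. *Syt13*, a synaptotagmin, had 1 UMI in cluster 2 and 2772 in cluster 1 (899-fold lower, 161 to 35524), and *Grin2a*, the NMDA receptor subunit, had 1 and 2823 (916-fold lower, 164 to 36177). *AA467197*, *Ankrd50* and *Myh14* had no UMI in cluster 2 and were at least 92.0-fold, 98.5-fold and 74.4-fold lower. *Syt13*, *Grin2a*, *AA467197*, *Ankrd50* and *Myh14* were in 2, 0, 1, 2 and 0 of 36 cells of cluster 3. In cluster 4 they were in 1, 3, 0, 3 and 1 of 22 cells.

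Secretory genes placed cluster 2 on both sides of cluster 1. *Scg2*, lower than in the other PVH clusters as a whole, was higher than in cluster 1, at 300 to 907 CPM against 17.1 to 130 CPM (3.25 ± 0.37). *Pcsk2* (2.14 ± 0.30) and *Chga* (1.20 ± 0.35) were also higher, and *Pam*, which amidates both hormones, was lower at 290 ± 36.8 against 840 CPM (-1.57 ± 0.18). *Pdyn* was higher by 1.96 ± 0.25, with 54.2 to 103 CPM in cluster 1. *Nos1* (-3.91 ± 0.41) and *Oprk1* (-4.00 ± 0.53) were lower.

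Clusters 3 and 4 met cluster 2 with at least 3 cells of each on plate JM8 only, which held 3, 4 and 3 cells of clusters 3, 4 and 2 and 7 cells of cluster 1. On this plate *Avp* was at 69434 CPM in cluster 2, 46425 in cluster 3 and 52054 in cluster 4, against 29.7 CPM in cluster 1. *Tac1* was at 2093, 870 and 281 CPM in the same order and 0.743 CPM in cluster 1, and *Bcl11a* at 37.5, 81.6 and 56.1 CPM and 0. *Krt73* was at 220, 0 and 15.5 CPM there, but over all plates it was in 12 of 36 cells of cluster 3 and 8 of 22 of cluster 4. With 1 plate these differences have no replicate check.

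On their own plates, clusters 3 and 4 were each compared with cluster 1 in the same way. The cells of cluster 1 on JM8 are common to all 3 comparisons, and the other plates of cluster 2 in these comparisons are Q plates, while those of clusters 3 and 4 are AL and JM plates. Cluster and batch cannot be told apart there. *Pdyn* differed from cluster 1 by 1.96, 2.15 and 2.92 on the log2 scale in clusters 2, 3 and 4. *Scg2* differed by 3.25, 2.19 and 2.72, *Tac1* by 8.89, 10.34 and 9.23, *Oprk1* by -4.00, -4.58 and -2.29, and *Nos1* by -3.91, -3.31 and -2.26.

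**Figure D4:**
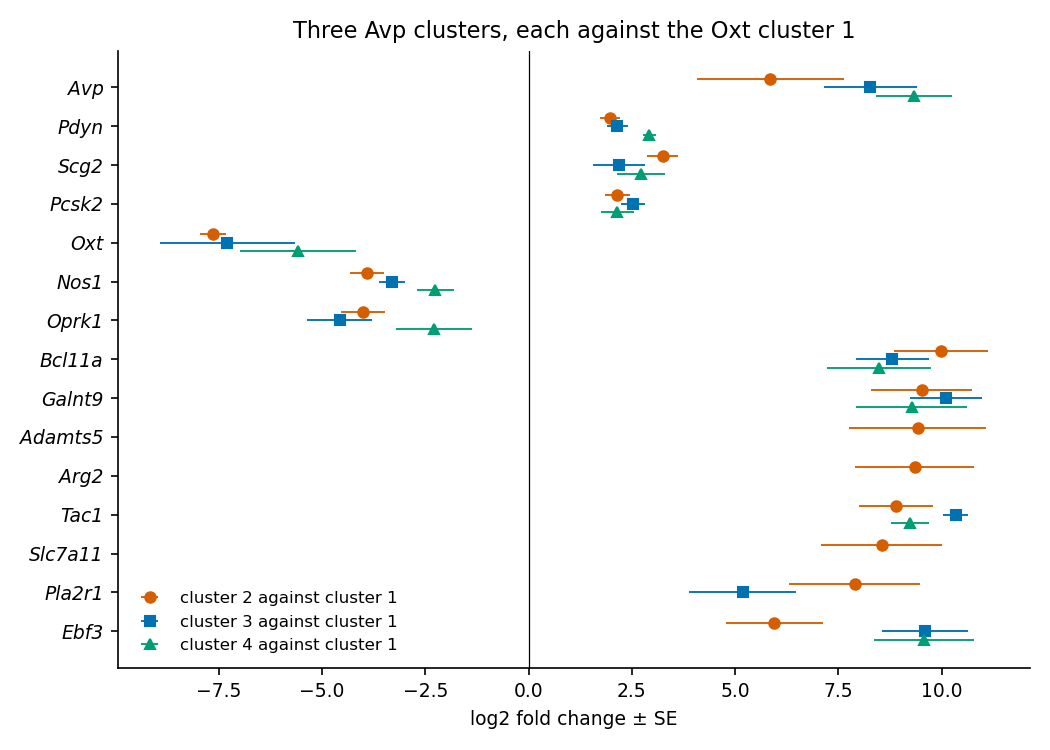
Log2 fold change (points, with bars of 1 standard error) of clusters 2, 3 and 4, each against the *Oxt* cluster 1 on its own plates. *Pdyn*, *Scg2*, *Pcsk2* and *Tac1* lie to the right and *Oxt*, *Nos1* and *Oprk1* to the left in all 3, and genes with 0 or 1 UMI in a group have a position that depends on the fit, and a gene with too few UMIs has no point.

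Most cells of cluster 2 returned to it when their own plate was left out of the profiles. Each cell was assigned to the PVH cluster whose mean profile over 2000 variable genes, made without its own plate, it resembled most. Of the 53 cells, 49 were assigned to cluster 2, 3 to cluster 3 and 1 to cluster 4. On the Q plates 46 of 48 returned to cluster 2, and on AL5 and JM8 3 of 5. From other clusters, 3 cells of cluster 1 and 1 of cluster 3 went to cluster 2. This is a description, because the clustering itself had used every plate. For a cell of a Q plate, the profile of cluster 2 still came mostly from other Q plates. Clusters 3 and 4 had 1 cell on a Q plate, so a return to cluster 2 rather than to them cannot be told apart from a match by batch.

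The amount of RNA was measured through the spike-ins, whose counts are not among the genes that were clustered. Cells of cluster 2 had 8.27, 8.54, 11.2, 9.10 and 4.06 UMIs of genes per UMI of spike-ins on Q5, Q6, Q7, Q8 and JM8 (plate medians). The other PVH clusters had 9.69, 10.5, 9.91, 6.23 and 5.22, so cluster 2 was higher on 2 of 5 plates. The mean log2 difference was -0.03 ± 0.39 (SD, n = 5; exact two-sided permutation over plates, p = 0.875), where 0.0625 is the smallest p that 5 plates allow. The plate differences ran from -0.36 to 0.55.

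Total UMIs (-0.05 ± 0.58) and UMIs of spike-ins (0.05 ± 0.32) differed by less than the spread between plates. The number of genes detected was compared at 85959 UMIs per cell, which left out 38 of 373 cells, among them 2 of cluster 2, and left 4 plates. It was 4351 ± 132 in cluster 2 and 4358 ± 414 in the other clusters. Adjusted over these 4 measures by Benjamini-Hochberg, all p-values were 1.

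Against cluster 1, the amount of RNA and the number of genes were lower in cluster 2 on each plate compared, while the UMIs of spike-ins differed by 0.045 ± 0.51 and were higher on 3 of 5 plates (exact permutation, p = 0.8125). UMIs of genes per UMI of spike-ins were 8.24 in cluster 2 and 13.1 in cluster 1 on average, a log2 difference of -0.70 ± 0.20, and were lower in cluster 2 on 5 of 5 plates (exact permutation, n = 5, p = 0.0625, the smallest possible). Genes detected at equal depth were 4351 against 4904, lower on 4 of 4 plates (exact permutation, n = 4, p = 0.125, the smallest possible). The design cannot reach 0.05 with these numbers of plates. The part of this difference in depth in the genes that were lower than in cluster 1 was not tested.

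**Figure D5:**
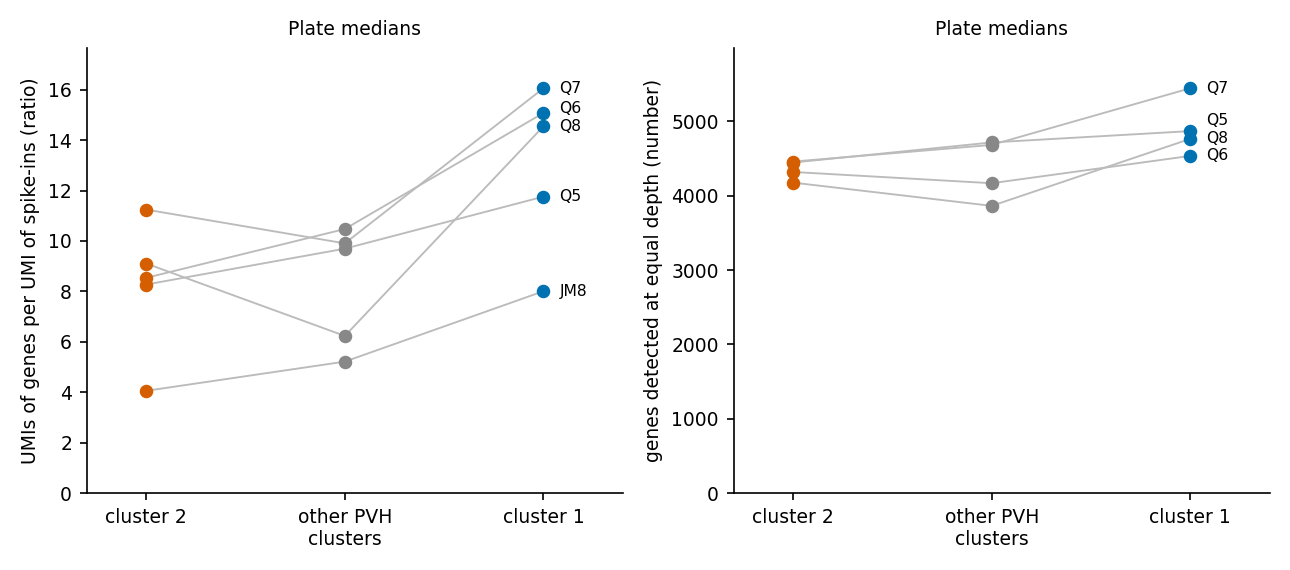
Plate medians of the UMIs of genes per UMI of spike-ins (left) and of the number of genes detected at 85959 UMIs per cell (right), in cluster 2, in the other PVH clusters and in cluster 1, which is among them. Lines join a plate, and cluster 2 lies below cluster 1 on 5 of 5 plates on the left and 4 of 4 on the right.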

How the data were processed

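UMIs were measured in 960 wells of 10 plates (48397 genes, 92 spike-ins). The deposited counts are whole, not normalized UMI counts per gene and cell. The submitters' processing notes name Trimmomatic 0.36, STAR 2.5.3a and GRCm38.p5, and how UMIs were counted is not given in the sources used here. The cluster labels are those the authors deposited. They clustered variable genes and cells repeatedly over subsets of the cells. No doublet caller was run, since cells were picked singly by hand.

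UMIs were summed per plate for cluster 2 and for the other PVH clusters, on the 5 plates with at least 3 cells of cluster 2. edgeR 4.0.16 (R 4.3.3; TMM scaling, filterByExpr, robust quasi-likelihood fit, plate as a block) gave each log2 fold change and its standard error. No p-value was taken from these fits. Genes were counted at 2-fold or more with the same direction on every plate. CPM are UMIs per 1000000 UMIs of a cell or a sum. Named were the 3 markers, the gene lists, the 15 counted genes with the largest positive and the 10 with the largest negative log2 fold change at a mean of at least 20 CPM, and 8 on each side against cluster 1. A result among these is not reported here. A floor of 3 counts over the cluster was used for genes at 0. Tables and exact tests were computed with scipy 1.17.1, pandas 2.3.3 and numpy 2.4.6 under Python 3.11.15, and matplotlib 3.10.9 made the figures. The fit was tested on simulated counts. Alternatives were DESeq2 1.42.0, other size factors, filters, references and cell numbers, the number of cells with a gene, and each plate left out. The members and gene lists were chosen with earlier results of these data known, so no list is given as independent support.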

Additional observations from a re-analysis of the deposited data

Results flagged for a closer look

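Of 21 sets of plate values of cluster 2 that were looked at, 6 had a plate far from the others. How many such sets chance would give was not tested. *Oxt* was highest on Q5, at 1111 CPM, where the wells with under 1000 UMIs also held the most of it. *Clic1* was highest on Q5 too, at 199 CPM. The other 4 were highest on JM8, the plate with 3 cells of the cluster and the lowest depth, with *Slc7a11* at 79.6 CPM, *Krt73* at 220 CPM, *Tyrp1* at 108 CPM and *Rgma* at 103 CPM.

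*Avp* was also present in wells that the table of cells does not list. A well of plate Q6 held 164 *Avp* UMIs of 7986 UMIs in all, or 20536 CPM, and a well of plate Q7 held 196 of 1278, or 153365 CPM. The first lies just below and the second just above the range of cluster 2 cells, 22361 to 149244 CPM, at a depth far below the 53363 UMIs of its shallowest cell.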

How the results depend on the processing

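Of the 54 single-gene log2 fold changes, 655 values under the alternatives kept direction and size, 122 moved by more than their spread and 3 reversed. The reversals were *Avp* at -0.068 against the other clusters and *Oxt* at 0.034 against cluster 1 when cells with a UMI were counted in place of UMIs, and *Oxt* at 0.15 against PVH clusters other than 1, 3, 4 and 12. Both genes had UMIs in nearly every cell, so counting cells cannot separate the groups. The 132 higher genes became 234 on Q plates only, which is also the result with at least 5 cells per sum, 35 with counts of cells, 205 without clusters 1, 3, 4 and 12 in the reference, 233 with equal numbers of cells, and 169 to 234 with a plate left out. The 1118 lower genes became 2016 with no filter, 82 with counts of cells, 302 with equal numbers of cells, and 1435 to 1676 with a plate left out. Of the main genes, 82 higher and 190 lower were shared with the fit of equal numbers of cells, and 132 and 1082 with DESeq2. Against cluster 1, the 216 higher genes became 393 on Q plates only or at 5 cells per sum, 5 with counts of cells and 275 to 393 with a plate left out, and the 726 lower genes became 8 with counts of cells and 960 to 1064 with a plate left out. With fewer plates fewer directions must match, which by itself raises these counts. Differences near 0 changed sign. UMIs per spike-in UMI went to 0.051 on Q plates only and from -0.18 to 0.051 with a plate left out, total UMIs to 0.081 with plate means, 0.14 on Q plates only and from -0.19 to 0.14, spike-ins from -0.061 to 0.16, and genes at equal depth from -0.035 to 0.031. The separate comparison of genes at equal depth with cluster 1 gave -0.17, lower on 4 of 4 plates. For the other changes the cause was not tested. Both sides of a comparison came from the same plates, which were kept as a block, and without this block 134 genes were higher and 1042 lower. Values of plate JM8 rest on 3 cells of the cluster.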
